A study of Mus musculus with 2 samples.

Results

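The 36 cell-cycle genes described here were taken by name from the 27998 genes counted in macrophages of the mouse small intestine. They were placed by textbook role into 18 mitotic genes, 11 S-phase genes, 4 histone genes and 3 genes of other chromatin or cytoskeletal proteins that dividing cells make in quantity. A cell entered if it had 200 or more detected genes and no more than 10% of its transcripts from mitochondrial genes. The wild type was C57BL/6J, males bought from Janvier, and the Ccr2 knockout (CCR2-/-, JAX strain #:004999) came from an in-house colony, so genotype and source cannot be told apart. Ages, and the sex of the knockout animals, are not given in the sources used here. From 3 to 4 intestines per genotype were pooled, and live CD45+ cells that lacked CD3, TCRb, B220, SiglecF, Ly6C and Ly6G and carried CD11b, MHCII and CD64 were sorted and run on the 10x Genomics 3′ v2 platform, which counts transcript ends by unique molecular identifiers (UMIs). There was 1 deposited sample per genotype, called a library here. The wild-type barcodes carried 2 suffixes, and the cells of each suffix are called lane 1 and lane 2 here. No difference between the genotypes therefore has a replicate behind it, and no test was made. Both lanes were deposited under 1 wild-type sample. If they are a split of that sample, they are a repeat measurement of it and not of the genotype. Summed erythroid markers differed widely between the lanes (values below). At least 3 of the markers were found in 1 lane 1 cell and in 0 lane 2 cells. Whether the lanes held the same mixture of cells is uncertain, and each lane ratio is to be read with that limit.

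A cell that prepares to divide first loads the ring of Mcm helicase proteins onto its replication origins and makes the sliding clamp Pcna and the nucleotide-synthesis enzymes Rrm1, Rrm2 and Tyms, partly under control of E2F factors. During S phase it also transcribes the replication-dependent histone genes, whose messages end in a stem loop in place of a poly(A) tail. Mitotic genes such as Top2a, Mki67 and Ccnb1 are held back until late in the cycle, largely through CHR elements in their promoters. Macrophages of the gut wall are replaced in part by blood monocytes, which need the chemokine receptor Ccr2 to leave the bone marrow, and some persist and divide in place.

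Of 3054 deposited wild-type cells 3016 were retained, 2109 in lane 1 and 907 in lane 2, and of 2774 knockout cells 2612 were retained. The median depth was 6185 UMIs per cell in lane 1, 6034 in lane 2 and 2439 in the knockout, and the retained totals were 14571081, 6107027 and 7265386 UMIs. Lanes 1 and 2 shared 5 cell barcodes, lane 1 and the knockout shared 6, and lane 2 and the knockout shared 0. The 2 lanes thus held different cells, and not the same cells read again. Ccr2 itself was at 347 CPM (counts per 1000000 UMIs) in lane 1, 293 CPM in lane 2 and 6.88 CPM in the knockout. At least 3 of 8 macrophage genes (C1qa, C1qb, C1qc, Csf1r, Cd68, Mertk, Fcgr1 and Adgre1) were detected in 99.2% of wild-type and 93.6% of knockout cells. All levels below are CPM over the retained cells of a lane or library, and intervals cover counting error at 95% and nothing else.

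The promoters of 4 members are shown because they carry the elements by which the groups differ in textbook accounts. Promoter windows of 300 bases were matched for 30 of the 36 genes in RefSeq (GRCm38.p6), and the 250 bases before the start site are printed 5′ to 3′ on the strand of the gene, which is the minus strand for all 4. Capitals in Top2a (chr11:99024190-99024439) and Mcm6 (chr1:128359706-128359955) mark CHR elements (TTTGAA or TTCGAA), E2F elements (TTTGGCGC, TTTCGCGC, TTTCCCGC or TTTGCCGC) and CCAAT boxes (CCAAT). Capitals in Hist1h1b (chr13:21780626-21780875) and Hist1h2ae (chr13:23571221-23571470) mark CCAAT boxes, the H1 box (AAACACA) and the TATA box (TATAAA), and CHR matches are left in lower case there. All motifs were searched on both strands.
Top2a: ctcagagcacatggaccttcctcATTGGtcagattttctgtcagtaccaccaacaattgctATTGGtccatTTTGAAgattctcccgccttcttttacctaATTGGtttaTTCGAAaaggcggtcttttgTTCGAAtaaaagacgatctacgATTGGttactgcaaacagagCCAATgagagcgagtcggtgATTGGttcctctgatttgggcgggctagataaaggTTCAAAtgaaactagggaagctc
Mcm6: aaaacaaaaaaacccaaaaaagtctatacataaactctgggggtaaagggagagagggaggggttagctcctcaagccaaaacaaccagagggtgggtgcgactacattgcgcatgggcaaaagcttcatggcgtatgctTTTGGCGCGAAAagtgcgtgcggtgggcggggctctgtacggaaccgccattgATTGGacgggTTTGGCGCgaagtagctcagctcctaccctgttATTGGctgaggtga
Hist1h1b: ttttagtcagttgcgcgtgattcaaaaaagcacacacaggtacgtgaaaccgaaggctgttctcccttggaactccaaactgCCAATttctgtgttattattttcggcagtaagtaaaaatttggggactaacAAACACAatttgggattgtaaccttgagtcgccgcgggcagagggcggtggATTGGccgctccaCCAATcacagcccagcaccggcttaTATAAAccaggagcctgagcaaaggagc
Hist1h2ae: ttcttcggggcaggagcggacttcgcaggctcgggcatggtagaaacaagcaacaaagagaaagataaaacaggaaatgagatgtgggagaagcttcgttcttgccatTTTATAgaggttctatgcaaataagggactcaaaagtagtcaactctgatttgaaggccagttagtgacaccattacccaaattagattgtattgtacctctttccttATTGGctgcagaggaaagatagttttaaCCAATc
The Top2a window held 4 CHR matches and no E2F match, and the Mcm6 window held 3 E2F matches, of which the first pair overlap each other, and no CHR match. Across the matched windows a CHR was found in 12 of 15 for mitotic genes, in 2 of 11 for S-phase genes and in 2 of 3 for histone genes (Hist1h1b and Hist1h2ae), against 19.1% of 32544 promoter windows of the same length. An E2F element was found in 1 of 15 mitotic and 5 of 11 S-phase windows, against 2.28% of all windows. CCAAT boxes were in 13 of 15 mitotic and 10 of 11 S-phase windows, against 37.4%. The letters TATAAA were in 3 of 3 histone windows, in Hist1h2ae only on the opposite strand, and in none of the mitotic or S-phase windows, against 13.6%, and the H1 box was in the 2 linker histone windows, Hist1h1b and Hist1h1e, against 7.20%. These are matches of letters and were not tied to binding data.

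The 4 groups of genes differed in how far they separated the libraries. Summed over the 18 mitotic genes, the level was 221 CPM in lane 1, 128 CPM in lane 2 and 126 CPM in the knockout. The 11 S-phase genes summed to 252, 223 and 265 CPM, the 4 histone genes to 124, 38.3 and 20.6 CPM, and the 3 remaining genes to 815, 718 and 695 CPM. The mitotic sum of the knockout was thus at the level of wild-type lane 2, the S-phase sum was slightly above both lanes, and the histone sum was below both.

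With 1 CPM added to each level, knockout over wild type on the log2 scale was -0.62 (interval -0.72 to -0.51) for the mitotic sum, 0.12 (0.04 to 0.20) for the S-phase sum, -2.20 (-2.44 to -1.97) for the histone sum and -0.18 (-0.22 to -0.13) for the rest. Within the wild-type library, lane 2 to lane 1 gave -0.78, -0.17, -1.67 and -0.18 in the same order, so the lane ratio of the mitotic sum was as large as the genotype ratio. Ratios of knockout to lane 1 and to lane 2, which share the knockout cells, were -0.81 and -0.03 for the mitotic sum, 0.07 and 0.24 for the S-phase sum, and -2.53 and -0.86 for the histone sum. Over the 7401 genes with a mean of at least 10 CPM over both libraries the median ratio of knockout to wild type was 0.18 with a standard deviation of 0.69 across genes, and that of lane 2 to lane 1 was -0.07 with a standard deviation of 0.35. Scaling by median-of-ratios size factors in place of total UMIs shifted ratios of knockout to wild type down by 0.19 and put the S-phase sum at -0.07. In summed counts, fewer dividing cells and less of these transcripts per dividing cell cannot be told apart; values per cell are given further on.

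Only 20 of the 36 genes reached that mean of 10 CPM, among them 4 of the 18 mitotic genes (Mki67, Top2a, Birc5 and Cenpa). Of these 20, 4 were at least 2-fold lower in the knockout than in wild type, where 3.12% of the 7401 genes were, and 0 were at least 2-fold higher, where 9.04% were. The 4 were the histone genes. Of these, Hist1h2ae, Hist1h1b and Hist1h1e were above 10 CPM only in wild type, so they entered through the library in which they were high and had to differ. With no minimum level, the count over all 36 genes was also 4. Against lane 1 alone 5 were at least 2-fold lower (3.04% of all genes), the histone genes and Top2a, and against lane 2 alone 1 was, Hist1h1e (4.11%). Between the lanes themselves, 5 of the 20 were at least 2-fold lower in lane 2, where 0.838% of all genes were, and these were the 4 histone genes and Top2a. None of the 20 was at least 2-fold higher in lane 2, where 0.0405% of all genes were, or in the knockout against lane 1 or lane 2 alone, where 8.08% and 14.5% were. The histone and Top2a ratios were thus larger wherever lane 1 was the reference.

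The lane difference depended on which cells were compared. Among cells with 2000 to 4000 UMIs (523 in lane 1, 190 in lane 2 and 1051 in the knockout) the mitotic sum was 141 CPM in lane 1, 218 CPM in lane 2 and 67.3 CPM in the knockout. The log2 ratio of lane 2 to lane 1 was then 0.63 and the genotype ratio was -1.25, from 218, 124 and 204 mitotic UMIs. The histone sum was 48.5, 38.7 and 10.6 CPM in these cells, and the S-phase sum was 259, 285 and 248 CPM. Erythroid markers, a list of 6 genes that includes haemoglobins, also moved with the lane and the genotype, summing to 1080 CPM in lane 1, 3.44 CPM in lane 2 and 7436 CPM in the knockout. Of these 6 genes 1 was at 0 in wild type and none in the knockout. At least 3 of them were found in 1 cell of lane 1, 0 of lane 2 and 67 of the knockout. How the lane 1 UMIs were spread over cells was not tested. Plasma cell markers (7 genes) summed to 1926, 1875 and 2063 CPM. Fibroblast markers (6 genes) summed to 33.8, 13.8 and 245 CPM and endothelial markers (6 genes) to 54.3, 52.6 and 182 CPM, both highest in the knockout. The part of these markers in the results was not tested. Without the 341 wild-type and 220 knockout cells that carried at least 3 markers of another type, the mitotic ratio was -0.84 between genotypes and -0.92 between lanes, and the histone ratio was -2.57 and -1.47.

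**Figure D1:**
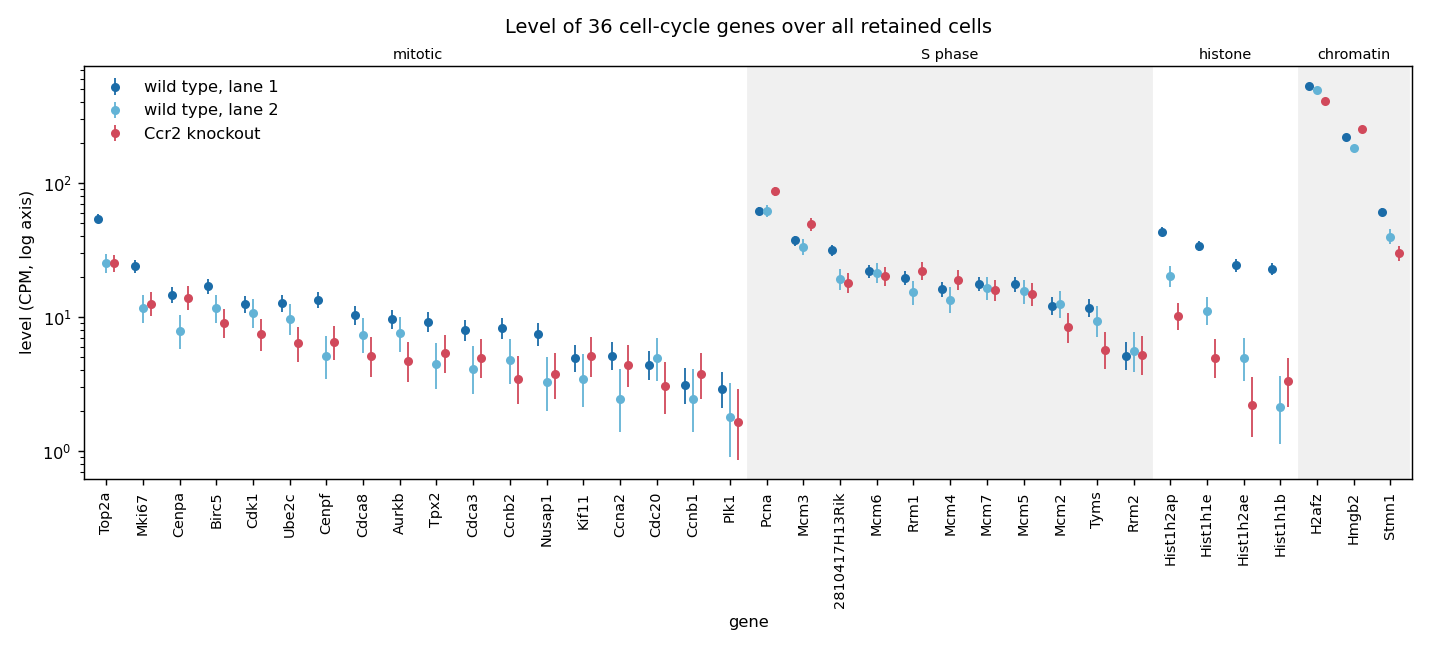
Level of each of the 36 genes in CPM (log axis) in wild-type lane 1, wild-type lane 2 and the Ccr2 knockout, with 95% Poisson intervals of the count. The 4 histone genes spread from 22.9 to 43.2 CPM in lane 1 down to 2.20 to 10.2 CPM in the knockout.

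Among the mitotic genes, 14 of 18 were lower in the knockout library than in wild type, with a median log2 ratio of -0.61. Of all 7401 genes 37.7% were lower, with a median of 0.18. Those genes had a mean of at least 10 CPM, which only 4 of the 18 mitotic genes reached. Against lane 2 alone 9 of 18 were lower, with a median of 0.05, where 35.3% of all genes were lower, with a median of 0.29. Top2a, the topoisomerase that untangles sister chromatids, was at 54.3 CPM in lane 1 (791 UMIs), 25.2 CPM in lane 2 (154 UMIs) and 25.2 CPM in the knockout (183 UMIs). Lane 1 stood apart and the other sets coincided, giving ratios of -0.83 for knockout to wild type and -1.08 for lane 2 to lane 1. Mki67, which coats mitotic chromosomes, followed the same order with 23.8, 11.6 and 12.5 CPM. Cenpf, a kinetochore protein, was at 13.5, 5.08 and 6.47 CPM. For both genes the knockout was above lane 2 and below lane 1.

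The genes that run mitotic entry and exit were less uniform. Cdk1, the mitotic kinase, was at 12.5 CPM in lane 1, 10.6 CPM in lane 2 and 7.43 CPM in the knockout, below both lanes. Its cyclin partner Ccnb2 was at 8.24, 4.75 and 3.44 CPM and had the lowest mitotic ratio of knockout to wild type, -0.89. The related cyclin Ccnb1 was at 3.09, 2.46 and 3.72 CPM with a ratio of 0.27, whose interval from -0.26 to 0.80 includes 0. Ccna2, the cyclin of S and G2 phase, was at 5.15, 2.46 and 4.40 CPM, and no order can be read between lane 1 and the knockout from 75 and 32 UMIs. Ube2c and Cdc20, which act with the anaphase-promoting complex, were at 12.6, 9.66 and 6.33 CPM and at 4.39, 4.91 and 3.03 CPM. Plk1, a mitotic kinase, had only 42, 11 and 12 UMIs.

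Members of the chromosomal passenger complex were below both lanes in the knockout. Birc5 was at 16.9, 11.6 and 8.95 CPM in lane 1, lane 2 and the knockout, Cdca8 at 10.3, 7.37 and 5.09 CPM, and the complex's kinase Aurkb at 9.61, 7.53 and 4.68 CPM. Against lane 2 the interval of the ratio included 0 for Birc5 (-0.80 to 0.12) and Cdca8 (-1.02 to 0.11). For Aurkb it was -1.16 to -0.01. The spindle proteins Tpx2 (9.20, 4.42 and 5.37 CPM) and Nusap1 (7.41, 3.27 and 3.72 CPM) had the knockout between the lanes, as did Cdca3 (7.96, 4.09 and 4.96 CPM). Cenpa and Kif11 stood near the level of lane 1. Cenpa, the histone H3 variant of centromeres, was at 14.5, 7.86 and 13.9 CPM, and the motor protein Kif11 was at 4.94, 3.44 and 5.09 CPM. Their ratios of knockout to wild type were 0.13 and 0.15, which became -0.06 and -0.04 under the other scaling.

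The S-phase genes differed among themselves. Pcna was at 61.6 CPM in lane 1, 61.6 CPM in lane 2 and 86.7 CPM in the knockout (897, 376 and 630 UMIs). The lanes coincided and the knockout was higher, with a ratio of 0.49 (0.35 to 0.62) that was 0.30 under median-of-ratios scaling. Mcm3 behaved in the same way with 37.2, 33.2 and 49.1 CPM and a ratio of 0.44. Of the other helicase subunits, Mcm4 was at 16.1, 13.4 and 18.9 CPM, Mcm5 at 17.5, 15.6 and 14.7 CPM, Mcm6 at 22.03, 21.5 and 20.1 CPM and Mcm7 at 17.6, 16.4 and 15.8 CPM. Mcm2 was at 12.1, 12.4 and 8.40 CPM with a ratio of -0.49, the lowest among the 6 subunits.

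The subunits of ribonucleotide reductase were at 19.6, 15.2 and 22.02 CPM for Rrm1 and at 5.15, 5.57 and 5.23 CPM for Rrm2, so that Rrm2 was level across the 3 sets. Tyms, thymidylate synthase, was at 11.7, 9.33 and 5.64 CPM, the lowest S-phase ratio at -0.86. The Pcna-binding factor gene 2810417H13Rik (Pclaf in GENCODE) was at 31.4, 19.2 and 18.03 CPM. Lane 1 again stood above lane 2 and the knockout for this gene, as for Top2a. Of the 11 S-phase genes 7 were lower and 4 higher in the knockout, with a median ratio of -0.11 beside 0.18 for all genes.

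The histone genes had the widest spread. Messages of such genes end in a stem loop in place of a poly(A) tail, and how well the platform captured them was not tested. Hist1h2ap, an H2A gene, was at 43.2 CPM in lane 1, 20.1 CPM in lane 2 and 10.2 CPM in the knockout (630, 123 and 74 UMIs). Hist1h2ae, another H2A gene, was at 24.2, 4.91 and 2.20 CPM (353, 30 and 16 UMIs). The linker histone genes were at 33.8, 11.1 and 4.96 CPM for Hist1h1e and at 22.9, 2.13 and 3.30 CPM for Hist1h1b (333, 13 and 24 UMIs). Lane 1 was the highest for all 4 genes, and the knockout was the lowest for 3 of them. Hist1h1b was lowest in lane 2, so that its ratio was -2.04 against all wild-type cells and 0.46 against lane 2.

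Summed over the other genes of the histone clusters, the sets were closer. The other 64 genes of the Hist clusters summed to 410 CPM in lane 1, 414 CPM in lane 2 and 379 CPM in the knockout, a ratio of 0.01 between lanes and -0.12 between genotypes. Hist1h1c, a linker histone gene named after its values were seen, was at 97.2, 113 and 139 CPM, above both lanes in the knockout. Of the 31 other histone genes with at least 20 wild-type UMIs, 21 were lower in lane 2 than in lane 1 and 4 of them by at least 2-fold. Of the 7401 genes 60.3% were lower in lane 2 and 0.838% by at least 2-fold, but these met a higher minimum, a mean of 10 CPM. At that minimum, 5 of 11 other histone genes, replacement histones included, were lower in lane 2 and 0 by at least 2-fold. Counts are shared in part: of the 31-base words in the last 300 transcript bases, 100% in Hist1h2ap and Hist1h1e, 27.4% in Hist1h2ae and 2.22% in Hist1h1b also occur in other annotated genes, so how the counting placed reads of the first pair is uncertain.

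Of the remaining 3 genes, Hmgb2 and H2afz are also known from cells that are not dividing. Stmn1, which destabilises microtubules, was at 60.6, 39.8 and 29.9 CPM in lane 1, lane 2 and the knockout, a ratio of -0.85 for knockout to wild type. Hmgb2, a chromatin-bending protein, was at 222, 182 and 253 CPM and had a ratio of 0.26, which was 0.07 under median-of-ratios scaling. H2afz, the replication-independent histone H2A.Z, was at 532, 496 and 413 CPM, a ratio of -0.34. Stmn1 fell from lane 1 to lane 2 to the knockout, whereas 9 of the 18 mitotic genes were higher in the knockout than in lane 2. H2afz and Hmgb2 differed between the lanes by -0.10 and -0.29.

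**Figure D2:**
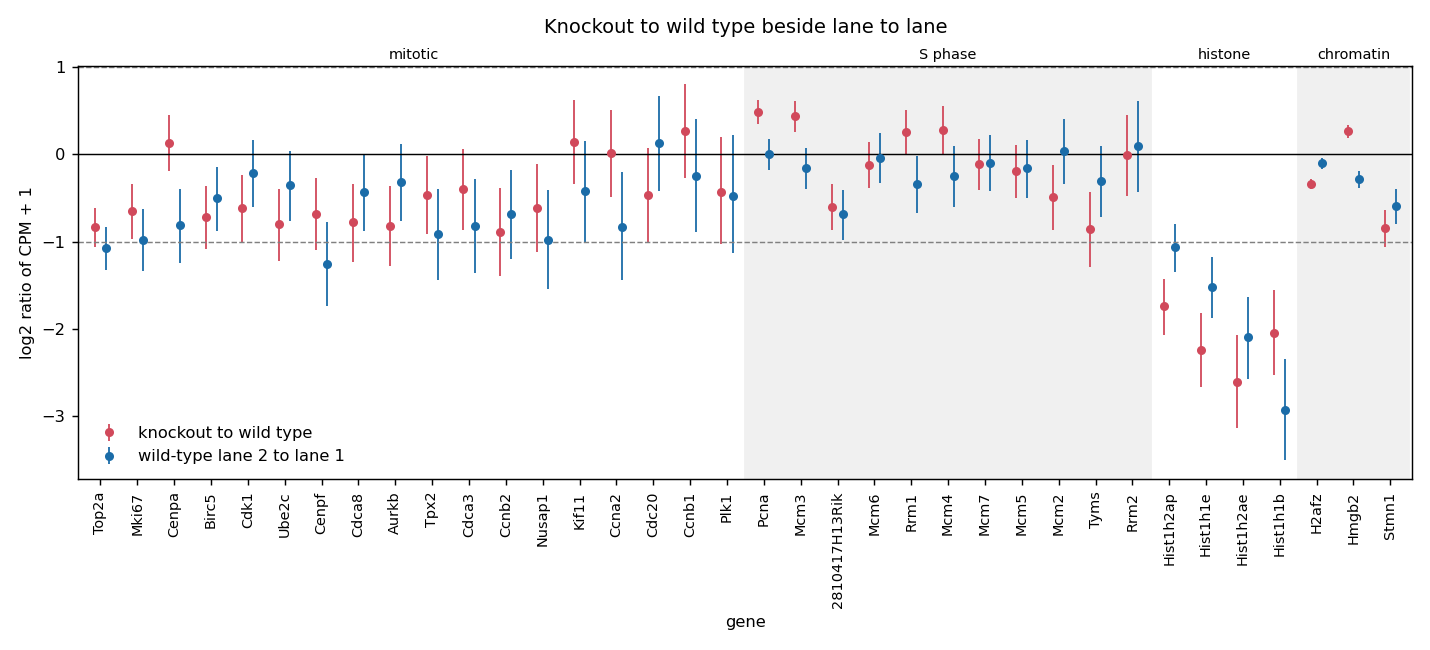
Log2 ratio of CPM plus 1 for knockout to wild type and for wild-type lane 2 to lane 1, with 95% intervals of the split of UMIs; dashed lines mark 2-fold. For most mitotic genes the 2 ratios overlap, and for the 4 histone genes both lie below the lower dashed line.

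Counts of a gene may come from few strongly expressing cells or from many weak ones. Cells of each library were ranked by the fraction of their UMIs in mitotic genes, leaving out the gene under study where it was itself mitotic, and the share of UMIs in the highest-ranked 5% of cells was taken. The top 5% were 151 wild-type cells (117 in lane 1 and 34 in lane 2) and 131 knockout cells, which held 5.57% and 4.44% of all UMIs. A median gene of the 7401 had 5.95% and 4.71% of its UMIs there. The lowest-ranked of these cells had 1 mitotic UMI in either library, and 72.9% of wild-type and 86.5% of knockout cells had none. The top-ranked cells had a median of 6075 UMIs (wild type) and 1660 UMIs (knockout), beside 6131 and 2482 for the other cells.

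Individual mitotic genes had between 54.2% (Cenpa) and 95.6% (Ccna2) of their wild-type UMIs in these cells, and between 35.6% (Cenpa) and 87.5% (Ccna2) in the knockout. Summed S-phase genes had 31.5% in wild type and 21.9% in the knockout. When cells were thinned to 1000 UMIs the S-phase shares were 21.3% and 16.4%. That sum hid a division among the S-phase genes. Pcna and Mcm2 to Mcm7 had 16.5% to 27.2% in wild type and 12.2% to 24.3% in the knockout, above a median gene and below every mitotic gene of the same library. Rrm2 had 82.6% and 89.5%, and 2810417H13Rik had 89.4% and 61.8%, which is near the range of the mitotic genes. Rrm1 (35.4% and 31.9%) and Tyms (39.5% and 26.8%) lay between.

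The histone genes divided too. Hist1h1b had 85.5% of its UMIs in the top-ranked cells in wild type and 54.2% in the knockout, Hist1h2ap 77.6% and 73.0%, and Hist1h2ae 75.2% and 56.2%. Hist1h1e, by contrast, had 26.8% and 13.9%. Stmn1 (70.6% and 64.5%) resembled the mitotic genes, whereas Hmgb2 (35.1% and 21.5%) and H2afz (15.5% and 12.2%) did not. Put as a number of cells, 50% of all mitotic UMIs lay in 31 wild-type and 22 knockout cells, 50% of histone UMIs in 21 and 9 cells, and 50% of S-phase UMIs in 183 and 208 cells. A single lane 2 cell held 153 of the 783 mitotic UMIs of that lane.

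**Figure D3:**
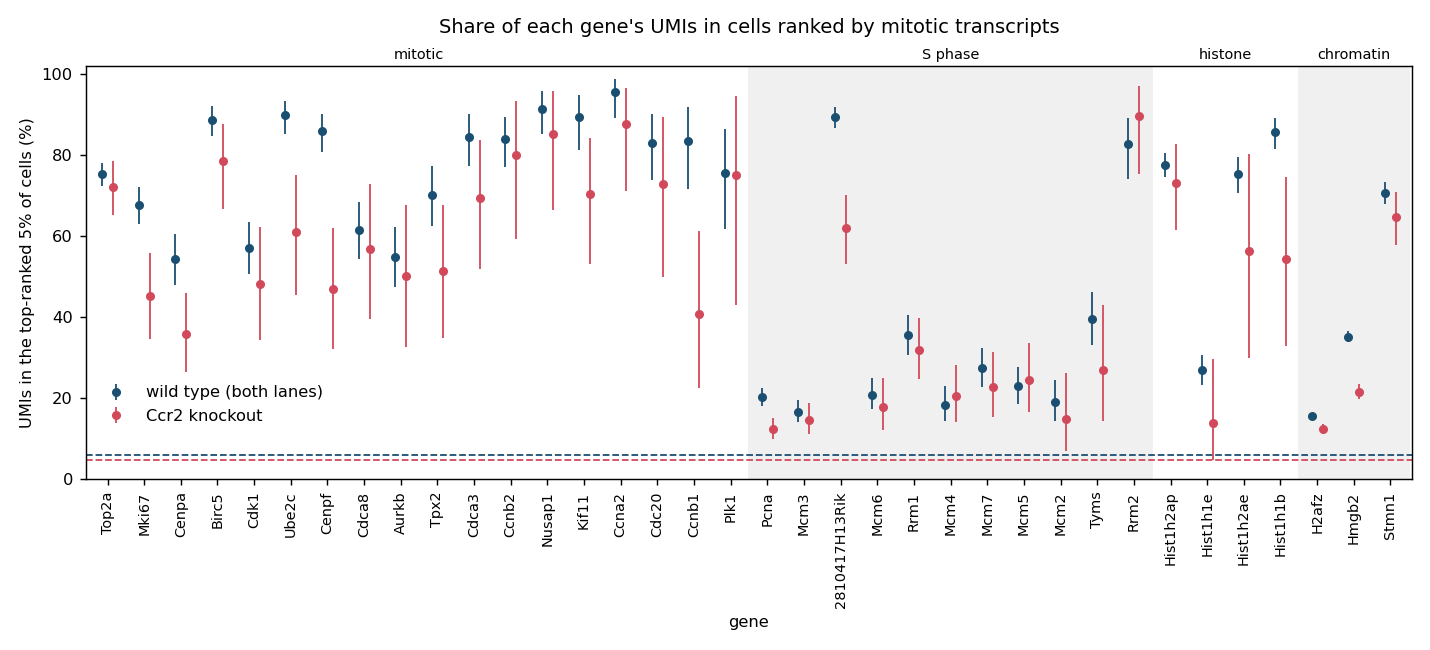
Share of each gene's UMIs (%) in the 5% of cells ranked highest by mitotic transcripts, in wild type and knockout, with exact 95% binomial intervals; dashed lines mark the median gene. Mcm genes, Pcna, Hist1h1e and H2afz sit near the bottom, and Rrm2 and 2810417H13Rik sit among the mitotic genes.

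Levels inside and outside these cells separated the groups further. In the top-ranked cells the mitotic sum, by which the cells were chosen, was 2711 CPM in lane 1, 2716 CPM in lane 2 and 2079 CPM in the knockout. The S-phase sum there was 1333, 1568 and 1306 CPM, and in the other cells 176, 177 and 216 CPM. The knockout was thus level with wild type in the top-ranked cells (ratio -0.07) and higher in the other cells (0.29, beside 0.18 for a median gene over all cells). Pcna in the other cells was at 51.3, 53.9 and 79.6 CPM. The histone sum was lower in lane 2 and the knockout in both kinds of cell, with 1262, 589 and 251 CPM in the top-ranked cells and 44.7, 19.5 and 9.94 CPM in the others. Hist1h1e in the other cells was at 25.9, 9.65 and 4.46 CPM, the same order as over all cells.

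**Figure D4:**
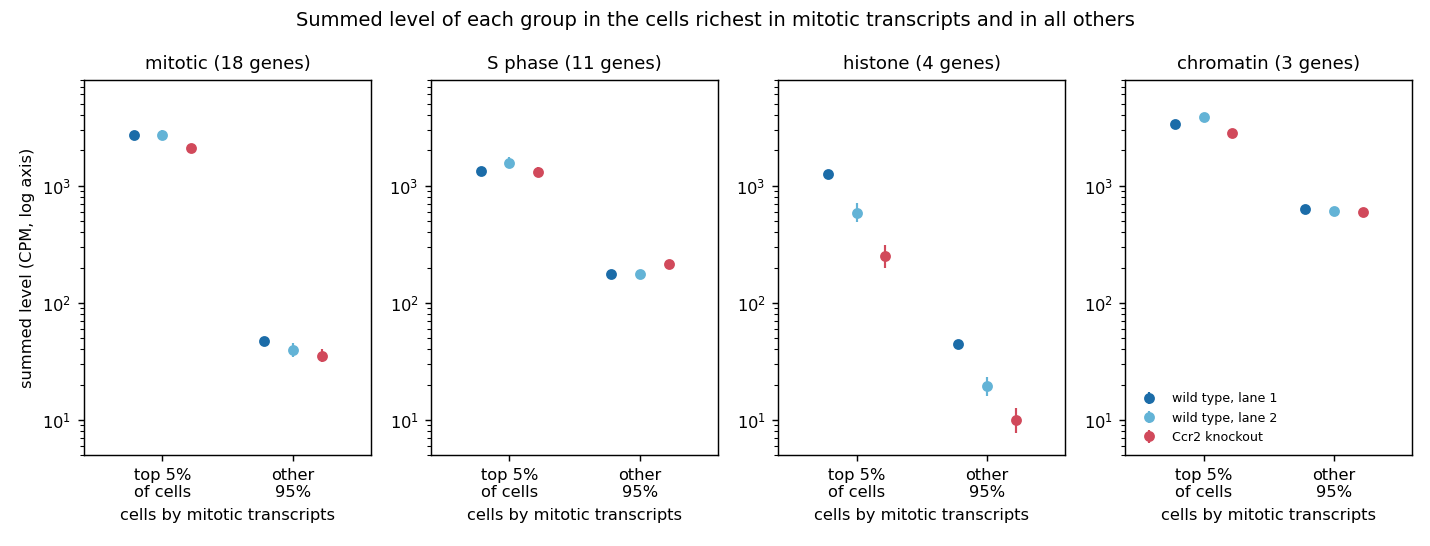
Summed level in CPM (log axis) of each gene group in the 5% of cells ranked highest by mitotic transcripts and in all other cells, for each lane and the knockout, with 95% Poisson intervals. The S-phase points lie closer together than the histone points, with lane 2 highest in the top-ranked cells and the knockout highest in the others. The histone points step down from lane 1 to lane 2 to the knockout in both kinds of cell.

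To compare cells at 1 depth, every cell was thinned at random to 1000 UMIs, which left out 1 wild-type and 196 knockout cells with fewer. A cell with UMIs of at least 3 different mitotic genes was called mitotic-positive. There were 35 of 2109 such cells in lane 1 (1.66%, 1.16 to 2.30%), 10 of 906 in lane 2 (1.10%, 0.531 to 2.02%) and 16 of 2416 in the knockout (0.662%, 0.379 to 1.07%). For all wild-type cells the share was 1.49% (1.09 to 1.99%). The interval of lane 2 covers the values of both other sets, and that of lane 1 does not overlap the knockout. Without thinning, the shares were 4.38% in wild type and 1.42% in the knockout. Before thinning, the median depth of the mitotic-positive cells was 8172 UMIs in lane 1, 5927 in lane 2 and 2303 in the knockout, beside 6149, 6043 and 2600 for the other cells.

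All 61 mitotic-positive cells carried at least 3 of the 8 macrophage genes. So did 99.2% of all wild-type and 93.6% of all knockout cells, so this alone does not settle their type. Markers of another cell type (at least 3 genes of a list) were found in 5 of the 45 wild-type and 4 of the 16 knockout cells. Without any such cells the shares were 40 of 2674 in wild type and 12 of 2202 (0.545%) in the knockout. Plasma cell markers summed to 1389 CPM in the mitotic-positive cells of wild type and 10314 CPM in those of the knockout, beside 1911 and 2063 CPM over all cells. What these markers contribute was not tested. None of the 61 was among the 98 cells with the highest doublet scores. Cells that passed a list for T cells or innate lymphoid cells, fibroblasts or endothelium served as a reference. There were 15 in wild type with a median of 4508 UMIs and 55 in the knockout with 3217. Macrophage genes were not required to be absent, so these cells can include some that also carried macrophage genes. Such cells may transcribe cell-cycle genes themselves, so free RNA and expression cannot be told apart in them. No such cell was mitotic-positive, where 3 of 15 and 3 of 55 (5.45%) are the limits that a count of 0 allows.

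The same cells bear on the S-phase genes. At 1000 UMIs, 4 of the 15 wild-type (26.7%) and 11 of the 55 knockout cells on these lists had an S-phase UMI. In cells with at least 3 macrophage genes and on none of these lists, called macrophages here, the shares were 16.5% and 20.6%. Both lay within the intervals of those values (7.79 to 55.1% and 10.4 to 33.0%). The presence of an S-phase UMI thus did not separate macrophages from the other cells, and no expression is read from that share alone. Mitotic UMIs were in 0 of 15 and 3 of 55 (5.45%) of the other cells and in 8.41% and 6.90% of macrophages, which the counts of the other cells cannot separate. Histone UMIs were in none of the 15 or the 55 cells, beside 4.49% of wild-type and 0.923% of knockout macrophages. The intervals of these counts of 0 reach 21.8% and 6.49%, so they cannot separate the other cells from macrophages either.

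**Figure D5:**
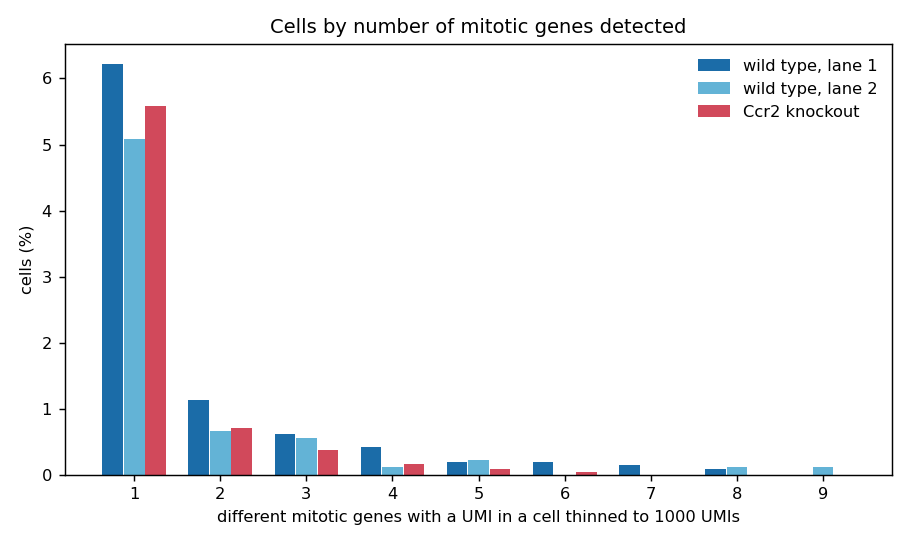
Share of cells (%) by the number of different mitotic genes with a UMI after thinning each cell to 1000 UMIs, for each lane and the knockout; cells with none are not drawn. Most cells with any mitotic UMI have just 1 such gene, and the counts reach 8 genes in lane 1, 9 in lane 2 and 6 in the knockout.

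Mitotic-positive cells often carried the other groups as well. An S-phase UMI was present in 60.0% of the wild-type and 68.8% of the knockout mitotic-positive cells, beside 15.8% and 20.1% of the remaining cells. A histone UMI was present in 20 of 45 and 4 of 16 of them, beside 3.87% and 0.75%. Conversely, 28 wild-type and 28 knockout cells had at least 3 different S-phase genes, of which 5 in either library were mitotic-positive, and 15 and 14 had no mitotic UMI at all. At 1000 UMIs per cell, the cells richest in S-phase genes and those richest in mitotic genes thus overlapped only in part.

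Per mitotic-positive cell, the sets were close in the mitotic genes, by which the cells were chosen, and less close in the S-phase and histone genes. The mitotic sum was 4515 CPM in lane 1, 4605 CPM in lane 2 and 4567 CPM in the knockout. The S-phase sum was 1377, 2037 and 2262 CPM. Single cells weighed heavily: 1 cell held 82 of 477 S-phase UMIs in lane 1, 44 of 161 in lane 2 and 52 of 161 in the knockout. For mitotic UMIs it was 153 of 1564, 153 of 364 and 76 of 325. The histone sum was 2191, 962 and 773 CPM, so the step between lanes was present inside these cells too. For knockout to lane 2 the histone ratio in them was -0.31, with an interval from -0.84 to 0.20 that includes 0. Top2a in them was at 1036, 848 and 998 CPM, and Hist1h1b was at 546, 63.3 and 126 CPM, from 189, 5 and 9 UMIs. In the knockout 1 cell held 33 of the 55 histone UMIs of these cells.

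Outside the lists, the genes with the highest ratio of mitotic-positive to other cells in both libraries, out of 1272 with enough counts, began with Knstrn, a spindle protein gene, at 127 against 4.35 CPM in wild type and 169 against 4.56 CPM in the knockout. Kpna2, Hmgn2, Tubb5, Ube2s, Sae1, Nucks1 and Ccdc34 were also among the first 10. Tubb5, a beta-tubulin gene, was at 1323 against 222 CPM and at 2178 against 157 CPM. The other two of the 10, Ly6d and Mzb1, rested on few cells: 69 of the 70 wild-type Ly6d UMIs and all 88 wild-type and 65 knockout Mzb1 UMIs lay in 1 cell of the library. Because cells were chosen by the same counts, these values describe the cells and carry no test.

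Genes of macrophage state were read in the same cells. C1qa and Lyz2, both highly expressed by gut macrophages, were at 3577 and 5537 CPM in wild-type mitotic-positive cells, beside 4956 and 8807 CPM in the others. In the knockout they were at 1307 and 998 CPM, beside 2928 and 3259 CPM, so both were lower in mitotic-positive cells of either library. Ccr2 was at 287 CPM in them and 332 CPM in the other cells, but at 338 CPM in lane 1 and 63.3 CPM in lane 2, the latter from 5 UMIs. Timd4 and Cd4, markers of long-lived gut macrophages, were at 14.1 and 32.9 CPM in wild-type mitotic-positive cells, beside 34.7 and 91.3 CPM in the others. In the knockout they were at 42.2 and 84.3 CPM, beside 164 and 209 CPM, from 3 and 6 UMIs. Plac8, a monocyte gene, was at 289 against 235 CPM in wild type, where 107 of its 123 UMIs lay in 1 lane 2 cell, and at 562 against 110 CPM in the knockout, where all 40 lay in 1 cell.

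Genes that act around the cycle were counted by list. None of the lists had a gene at least 2-fold lower in the knockout than in wild type, where 3.12% of the 7401 genes were. Of 7 inhibitors of the cycle above 10 CPM, 5 were at least 2-fold higher in the knockout, with a median ratio of 1.38 beside 0.18 for all genes, of which 9.04% were that much higher. Cdkn1a, the p21 inhibitor of cyclin-dependent kinases, was at 92.3 CPM in lane 1, 93.0 CPM in lane 2 and 383 CPM in the knockout. The antiproliferative genes Btg1 (722, 754 and 2239 CPM), Btg2 (730, 719 and 1897 CPM) and Tob2 (65.1, 43.9 and 217 CPM) were higher as well, and the fifth was Tob1 (6.11, 7.70 and 14.7 CPM), which passed the minimum of 10 CPM only through the knockout. The lanes were close for Cdkn1a, Btg1 and Btg2, and the knockout stood apart from both.

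Among 6 genes of the G1 kinases and their cyclins, 2 were at least 2-fold higher, with a median ratio of 0.66. Of all 7401 genes 9.04% were that much higher, the share to set beside both lists of this paragraph. Ccnd2, a D-type cyclin, was at 223, 191 and 454 CPM, and Cdk6, its kinase partner, was at 16.0, 15.4 and 39.4 CPM. Ccnd1 was at 75.5, 57.5 and 116 CPM, whereas Cdk4 was lower, at 44.9, 48.8 and 27.5 CPM. Of 9 pocket protein and E2F genes 1 was at least 2-fold higher, Lin54, which passed the minimum only through the knockout, with a median of 0.22 for the list, and Rb1, Rbl2 and E2f4 had ratios of 0.40, 0.50 and -0.27.

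Further replication and mitotic genes were counted in the same way. Of all 7401 genes 9.04% were at least 2-fold higher in the knockout and 3.12% at least 2-fold lower. The counts below are to be read beside these shares and not as results about the lists. Of 20 origin and fork genes, 1 was at least 2-fold higher, the polymerase subunit Pola2 (8.65, 6.88 and 47.9 CPM, also past the minimum only through the knockout), and the median ratio was -0.02. Rfc2 and Slbp had ratios of 0.32 and 0.21. Of 21 genes on a wider mitotic list, 1 was at least 2-fold higher, Spc24, which passed the minimum only through the knockout. The median was -0.19, beside -0.61 for the 18 mitotic members. The median share of their UMIs in the top-ranked cells was 27.5% in wild type and 19.2% in the knockout, beside 83.2% and 65.2% for the members. These 21 genes had a mean of at least 10 CPM, which only 4 of the 18 members reached, so they are set side by side at unlike levels. How far the 21 are confined to mitosis was not tested. The largest of the 21, Hmgb1, Tuba1b, Hjurp and Ran, had ratios of -0.42, -0.49, 0.87 and -0.93. Of 11 other histone genes above 10 CPM none was past 2-fold, with a median of 0.00, and the replacement histone genes H3f3b and H3f3a had ratios of 0.87 and -0.44.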

How the data were processed

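Raw UMI counts of each gene in each cell were deposited as 1 matrix per genotype. Per the submitters' processing notes Cell Ranger 3.0.1 and the mm10 build were used by the authors, and how cells were called and lanes combined is not given in the sources used here. Counts were summed over retained cells and divided by all UMIs (CPM). Sums carry exact Poisson intervals, and ratios and shares carry exact Clopper-Pearson intervals of UMIs or cells (95%). PCR and cell-to-cell variation are not in them. With 1 library per genotype no test across genes was made; n per genotype is 1. A value of 0 allows up to 3 counts. Thinning drew UMIs at random without replacement (seed 1). Scrublet (scanpy 1.11.5) marked 12 of 5628 cells by its automatic threshold, too few to trust, so no doublets were removed, and an alternative removed the 98 highest scores. Of 27998 gene identifiers 27645 matched GENCODE M21 (GRCm38). The calculations were tested on simulated data. All 36 members are given; from each wider list the genes of highest mean CPM are named, plus genes past 2-fold where there were 5 or fewer. The members and lists were chosen with earlier results of these data known. Alternatives tried are in the closing section.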

Additional observations from a re-analysis of the deposited data

How the results depend on the processing

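Ratios are log2, given as mitotic, S-phase, histone and chromatin sums where several follow. With 10 CPM added, the histone sum was -1.83 between genotypes and -1.47 between lanes. In cells with at least 500 genes and at most 5% mitochondrial UMIs, genotype ratios were -0.38 (mitotic), 0.21 (S-phase) and -0.11 (chromatin). Without cells carrying markers of another type they were -0.84 (mitotic) and -2.57 (histone), and lane ratios were -0.92 (mitotic), -0.075 (S-phase) and -1.47 (histone). In cells of 2000 to 4000 UMIs, genotype ratios were -1.25 (mitotic), -0.10 (S-phase, reversed) and -0.10 (chromatin). Lane ratios there were 0.63, 0.14 and 0.27 for mitotic, S-phase and chromatin, all reversed, and -0.32 for histones. With cells weighted equally, genotype ratios were -0.48 (mitotic), 0.24 (S-phase) and -0.13 (chromatin), lane ratios were -0.53, -0.053, -1.15 and -0.052, 2 members were past 2-fold, and Tpx2 reversed to 0.028. Median-of-ratios size factors gave -0.81, -0.071 (reversed) and -0.37 for mitotic, S-phase and chromatin, a lane ratio of -0.11 for chromatin, and 6 members past 2-fold. Against lane 1 alone the genotype ratios were -0.81 (mitotic), -2.53 (histone) and -0.23 (chromatin). Against lane 2 alone they were -0.026, 0.24, -0.86 and -0.047, 1 member was past 2-fold, and Mki67 (0.10), Tpx2 (0.23), Cenpf (0.30), Nusap1 (0.14) and Hist1h1b (0.46) reversed. Without Tyms and 2810417H13Rik the S-phase ratio was 0.23 and the S-phase share in top-ranked cells was 23.2% in wild type and 18.8% in the knockout. That share was 19.0% and 15.7% in the top 2% of cells, 37.7% and 26.6% in the top 10%, and 21.3% and 16.4% in thinned cells. For lanes taken alone, a choice made after seeing the data, it was 33.3% and 23.7%. The share of mitotic-positive cells in wild type and knockout was 2.49% and 1.37% with 2 mitotic genes required, 0.564% and 0.124% with 5, 2.65% and 1.19% at 2000 UMIs and 4.38% and 1.42% without thinning. Of 360 values of single members 291 moved by less than their counting interval, 63 by more and 6 reversed. Why values moved was not tested. No paired analysis was possible because there is 1 library per genotype. Depth limits single genes: the knockout histone genes rested on 16 to 74 UMIs each, and Plk1 on 12.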
